A study of Mus musculus with 2 samples.

Results

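Messenger RNA decay usually begins with shortening of the poly(A) tail. The transcript body is then degraded either from the 5′ end, by decapping and the exonuclease XRN1, or from the 3′ end by the RNA exosome. Tristetraprolin (TTP, encoded by *Zfp36*) binds AU-rich elements in the 3′ UTRs of inflammatory mRNAs in macrophages and recruits the CCR4-NOT deadenylase complex, and thereby feeds its targets into this machinery. The genes described here are the 50 that encode the deadenylases with their scaffold and adaptor subunits, the decapping factors with the LSM ring, the XRN exonucleases, the exosome, poly(A)-binding proteins, the GIGYF proteins and the helicase UPF1 with its partner UPF2. They were selected by symbol from a table of 37451 genes, in which all 50 symbols were found on 52 lines, because *Tob2* and *Lsm3* have 2 gene identifiers each.

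The table compares WT and ΔM BMDMs, with 1 library for each genotype. BMDMs are primary bone marrow-derived macrophages, here grown with CSF-1 from L929 cells. WT cells came from C57BL/6 mice and ΔM cells from C57BL/6 TTP fl/fl LysMCre mice, in which Cre expressed from the lysozyme M locus deletes *Zfp36* in myeloid cells. The mice were 7 to 9 weeks old, and WT animals were littermates. Both genotypes received the uridine analog 4-thiouridine at 100 μM over 16 h and then LPS at 10 ng/ml over 6 h, so that both libraries show the stimulated state and no unstimulated cells are compared. RNA was depleted of rRNA, and the values are FPKMs, that is, fragment numbers scaled to exon length and to the size of the library, and can be set side by side between genes. With 1 library per genotype no test was possible: every difference given here is a difference between 2 libraries and has no replicate check. Nor can fewer copies per cell be told apart from a different mix of cells in bulk RNA.

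The targeted gene *Zfp36* had 65.3 FPKM in the WT library and 16.7 FPKM in the ΔM library, in the direction of the labels. The table holds 1 value per gene, so that the part of *Zfp36* which the remaining ΔM fragments cover was not seen. All 8 macrophage markers in the table were at 71.2 FPKM or more in both libraries, whereas all markers of T cells, B cells, neutrophils, fibroblasts, endothelium, erythroid and dendritic cells were under 1 FPKM in both. *Lyz2*, the lysozyme gene at the locus that carries Cre, had 2481 FPKM in WT and 1356 FPKM in ΔM. Depth, estimated from the steps between low FPKMs, was about 36800000 fragments in WT and 32650000 in ΔM.

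All 4 catalytic subunits of CCR4-NOT carried the core of the TTP binding motif in their longest annotated 3′ UTR, and none of the 11 exosome genes did. Over all member lines the share with this core was lower than the 27.0% of protein-coding genes. UTR lengths differed, with 1006 to 6847 nt for the 4 CCR4-NOT subunits and 100 to 1203 nt for the exosome genes. The core was found in 6.27% of protein-coding genes with UTRs under 500 nt and in 49.8% of those at 2000 nt or more. The contrast was therefore not separated from UTR length. The motif is shown here in DNA letters, as TATTTAT on the transcript strand, with 10 nt on either side. These sequences are given because they hold the element that TTP is known to read. They cover every member line that carries it except *Dcp2*, whose windows are not shown here. Whether TTP bound these windows in the cells used here was not examined. Capitals mark the motif, coordinates are those of mm9 (NCBIM37), and each window lies in the 3′ UTR in the last exon of the transcript.
Cnot7, chr8:41578470-41578496, minus strand: tttataaacaTATTTATgatgttcttg
Cnot8, chr11:57932040-57932066, plus strand: ttgtaaatatTATTTATgtttttaatt
Cnot6, chr11:49485872-49485898, minus strand: tggtggtaatTATTTATgctttgagaa
Cnot6, chr11:49485069-49485095, minus strand: gctagtattaTATTTATatacagggtc
Cnot6l, chr5:96500181-96500207, minus strand: gggaagagatTATTTATttttgtttcc
Cnot6l, chr5:96499965-96499991, minus strand: ttaggttgtgTATTTATttttccccct
Cnot6l, chr5:96499712-96499738, minus strand: tttatttttcTATTTATtacacagttg
Pan3, chr5:148359507-148359533, plus strand: ctttgttttaTATTTATttttcatttc
Btg2, chr1:135973827-135973853, minus strand: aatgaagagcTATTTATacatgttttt
Tob2, chr15:81680291-81680317, minus strand: atcacctgctTATTTATgtacgaggtt
Dcp1a, chr14:31337505-31337531, plus strand: ccatggtttcTATTTATgcttttatgg
Dcp1b, chr6:119170400-119170426, plus strand: ttctcagagcTATTTATtaatagaatc
Edc3, chr9:57598361-57598387, plus strand: gcttctagctTATTTATtggcttgcct
Lsm6, chr8:81328884-81328910, minus strand: caagtctggcTATTTATaggagaaagt

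The median difference of the machinery between the 2 libraries was near 0, while single genes differed in both directions. The summed FPKM of the lines was 469 in WT and 411 in ΔM. *Lsm4*, the highest line in both libraries, weighs most in this sum, with 96.2 FPKM in WT and 70.3 in ΔM. Over 22259 protein-coding genes the sum was 2.1536e+05 in WT and 2.1473e+05 in ΔM. Of the 52 lines, 43 had a mean of at least 1 FPKM, and over these the median log2((ΔM + 1)/(WT + 1)) was -0.0055. In ΔM, 20 of the 43 lines were higher and 23 were lower, where 53.8% of all genes and 49.5% of protein-coding genes were higher. The same median was 0.028 over all 10765 genes with this mean and -0.0015 over the 8078 protein-coding ones. A difference of at least 1.5-fold on this scale was found for 6 of the 43 lines, 1 higher (*Cnot8*) and 5 lower (*Pan3*, *Cnot6l*, *Exosc3*, *Lsm2* and *Lsm5*) in ΔM. The background share was 18.7% of all genes and 10.2% of protein-coding genes, so that the members' 14.0% lies between both. By direction, 11.2% of all genes were higher and 7.51% lower by this size, and 4.82% and 5.36% of protein-coding genes. At 2-fold there were 2 member lines, *Lsm5* and *Lsm2*, against 9.31% of all and 2.51% of protein-coding genes. Adding 1 FPKM shrinks the ratios of low genes, and with 0.1 FPKM added, 9 lines (20.9%) passed 1.5-fold, against 24.2% of all genes and 16.1% of protein-coding genes.

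**Figure D1:**
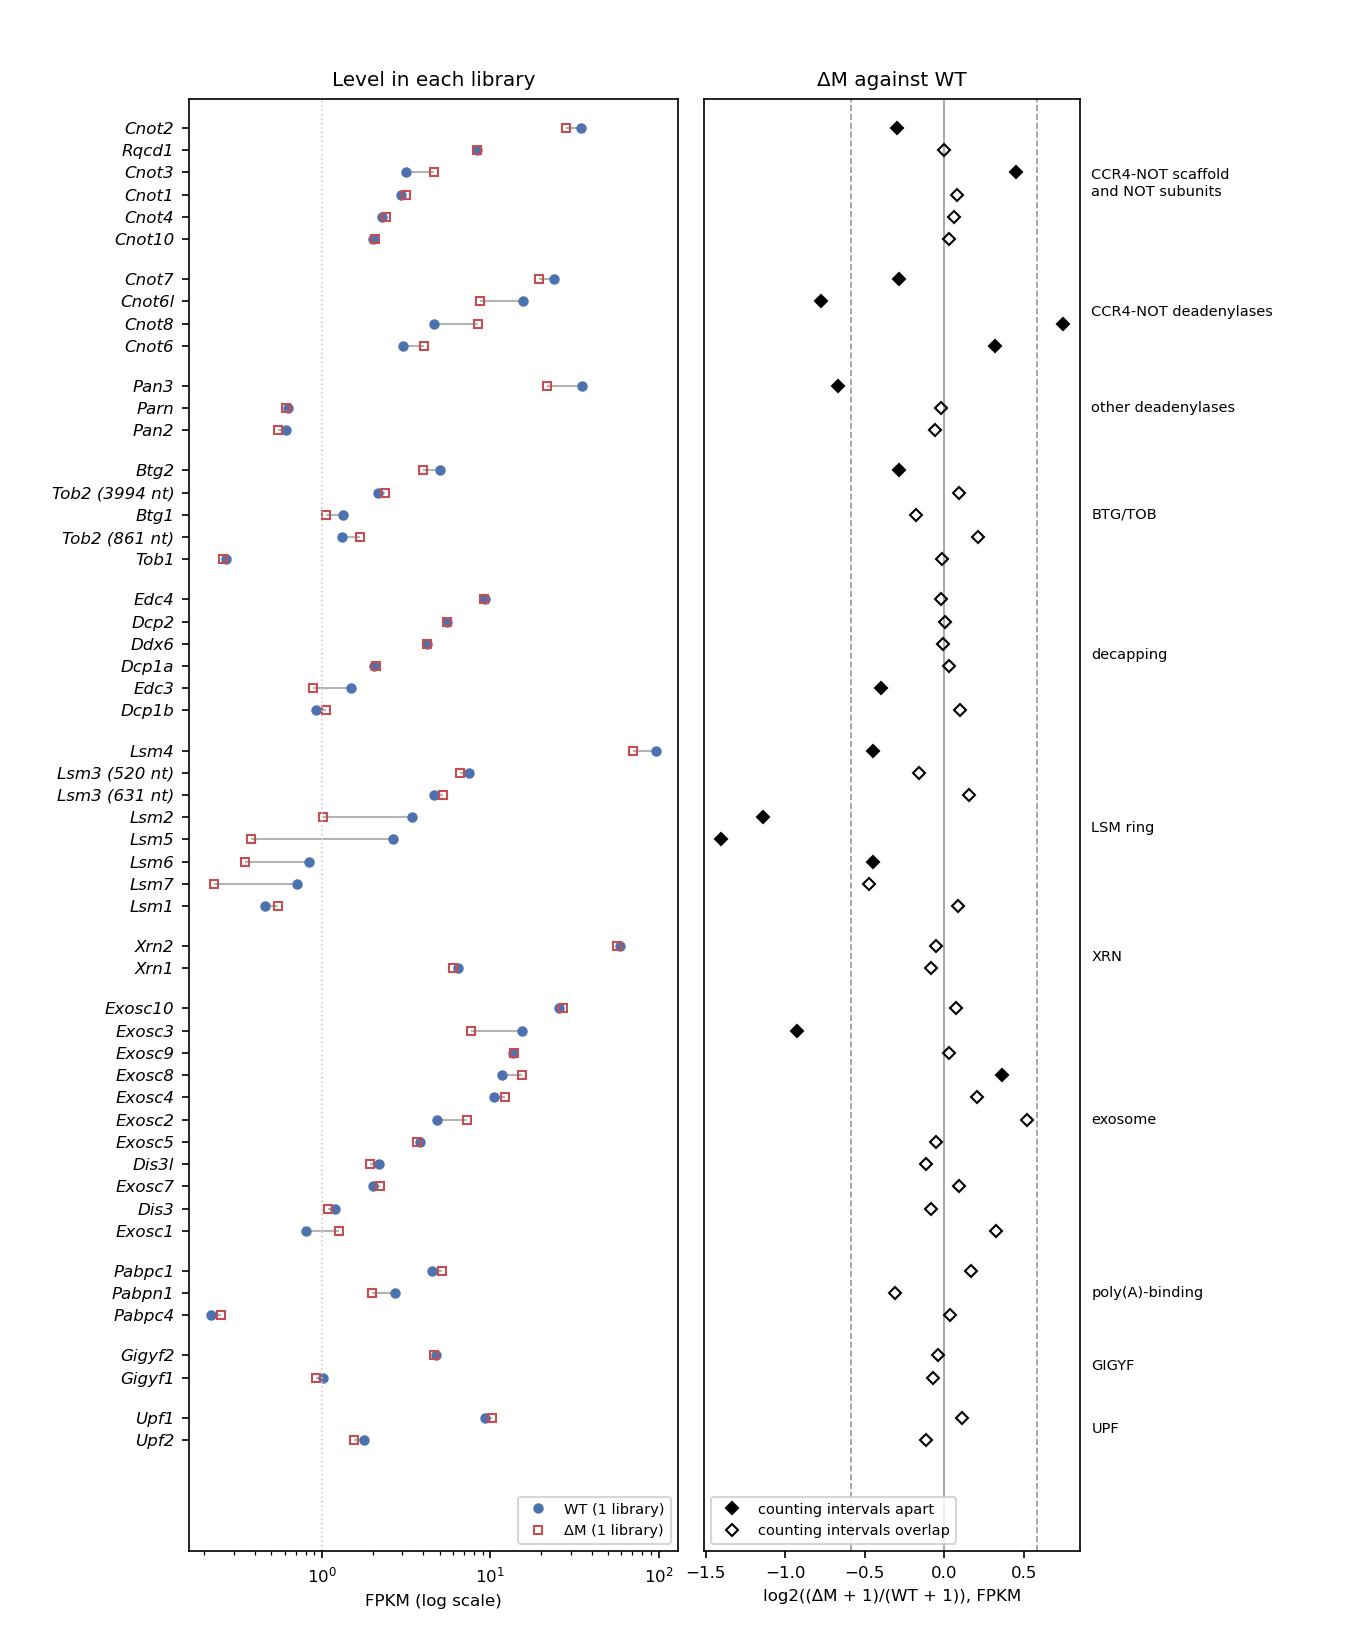
Level and difference of the 52 lines, grouped by sub-complex and ordered by WT level. The left panel gives FPKM on a log axis (filled circles, WT; open squares, ΔM; 1 library each; dotted line, 1 FPKM), and the right panel gives log2((ΔM + 1)/(WT + 1)) with dashed lines at 1.5-fold, filled where the 95% Poisson counting intervals of the libraries lie apart (15 lines) and open where they overlap (37 lines). At a mean of at least 1 FPKM, intervals lay apart for 32.6% of member lines and 37.2% of protein-coding genes. Most points sit near 0, and the widest gaps belong to *Lsm5*, *Lsm2* and *Exosc3*.

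Levels spanned a wide range within each complex, although the proteins of a complex are thought of as partners. In WT, the median of the 52 lines was 3.29 FPKM, 11 lines were at 10 FPKM or more and 9 were under 1 FPKM. *Lsm4* was the highest line in WT with 96.2 FPKM and *Pabpc4* the lowest with 0.22 FPKM. All 11 lines above 10 FPKM belonged to genes with several annotated transcripts, and 9 of these 11 had an annotated transcript shorter than 500 nt. Of 3062 protein-coding genes at 10 FPKM or more in WT, 2599 have several annotated transcripts and 1508 have a transcript shorter than 500 nt. The deposited FPKM gives 1 number for all transcripts of a gene, so that the isoform behind a high value was not seen.

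In the scaffold of CCR4-NOT, *Cnot2* stood above the other subunits. *Cnot2*, a subunit of the NOT module, had 34.8 FPKM in WT and 28.2 in ΔM, a log2 ratio of -0.30. *Cnot1*, the scaffold on which the complex is built and to which TTP binds, had 2.95 FPKM in WT and 3.18 in ΔM. *Cnot3*, the partner of CNOT2 in the NOT module, had 3.14 FPKM in WT and 4.66 in ΔM (log2 ratio 0.45). *Cnot3* and *Cnot2* were the only scaffold genes whose counting intervals lay apart, in opposite directions. At least 37.1% of 100-nt windows of the *Cnot3* transcript matched elsewhere in the genome with at most 2 mismatches, and 10.7% did so exactly. In addition, *Cnot3* shares 1011 exonic nt with *Leng1* on the opposite strand. The part of these in the value of *Cnot3* was not tested. *Rqcd1*, the homolog of yeast CAF40, had 8.32 FPKM in WT and 8.31 in ΔM. *Cnot4*, an E3 ubiquitin ligase, and *Cnot10*, a subunit of the N-terminal module, were between 2.02 and 2.41 FPKM in both libraries. Over the 6 scaffold genes the median log2 ratio was 0.044, with 4 higher and 2 lower in ΔM. It was -0.15 over *Cnot2* and *Rqcd1*, whose means were 5 FPKM or more.

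None of the 4 catalytic subunits of CCR4-NOT had a log2 ratio within 0.2 of 0, where 52.3% of protein-coding genes and 46.3% of all genes did. CCR4-NOT holds 1 nuclease of the CAF1 type, encoded by *Cnot7* or *Cnot8*, and 1 of the CCR4 type, encoded by *Cnot6* or *Cnot6l*. *Cnot7* had 24.1 FPKM in WT and 19.6 in ΔM (log2 ratio -0.28), whereas *Cnot8* had 4.64 FPKM in WT and 8.46 in ΔM (log2 ratio 0.75). The ratio of *Cnot7* to *Cnot8* was therefore 5.19 in WT and 2.32 in ΔM, while the sum of both was 28.7 FPKM in WT and 28.1 in ΔM. *Cnot6l* had 15.6 FPKM in WT and 8.68 in ΔM (log2 ratio -0.78), and *Cnot6* had 3.02 FPKM in WT and 4.02 in ΔM (log2 ratio 0.32). *Cnot6l* exceeded *Cnot6* by a factor of 5.16 in WT and 2.16 in ΔM, and here the sum was lower in ΔM, with 18.6 FPKM in WT and 12.7 in ΔM. Thus, in both pairs the more abundant paralog was lower and the less abundant one higher in ΔM, and the order within the pair was kept.

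For all 4 nucleases the counting intervals of WT and ΔM lay apart. This was frequent between the 2 libraries, with 37.2% of protein-coding genes and 32.6% of member lines at a mean of at least 1 FPKM. The interval of *Cnot8* ran from 4.02 to 5.32 FPKM in WT and from 7.57 to 9.42 in ΔM, and the one of *Cnot6l* from 14.5 to 16.8 in WT and from 7.80 to 9.64 in ΔM. These intervals cover counting error only and use the median length of the annotated transcripts. *Cnot8* has 4 annotated transcripts, *Cnot6* 5, *Cnot6l* 10 and *Cnot7* 11, and the shortest of *Cnot8* (231 nt) and *Cnot6l* (232 nt) are near the length of 1 fragment. *Cnot7* shares 247 exonic nt with *Zdhhc2* on the opposite strand, a gene with 11.96 FPKM in WT and 4.91 in ΔM. At least 19.5% of the windows of *Cnot8* matched elsewhere in the genome (6% exactly), against none found for the other 3 nucleases. How far the transcript sets, the overlap or the matching windows bear on the values was not tested.

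**Figure D2:**
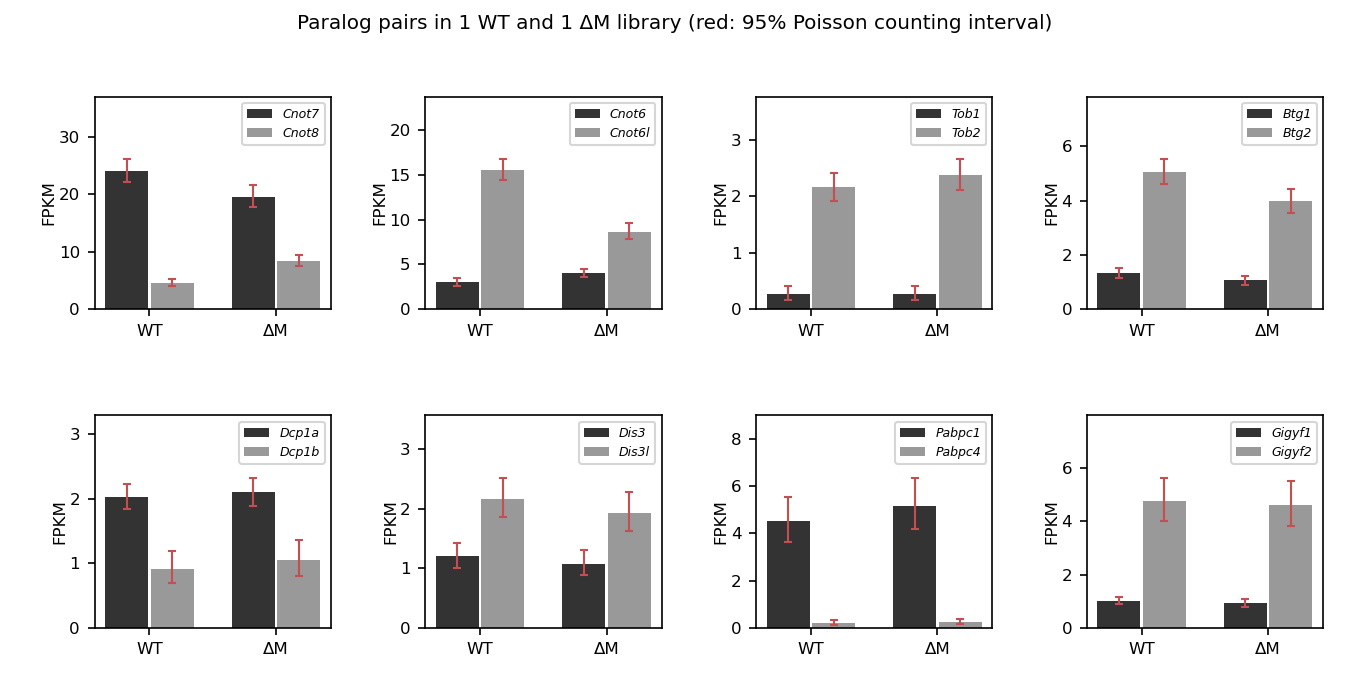
FPKM of 8 paralog pairs in the WT and the ΔM library (bars, 1 library each; red lines, 95% Poisson counting interval). In each pair the more abundant paralog is the same in both libraries, and the ratio of the pair moved most for *Cnot7* against *Cnot8* (5.19 in WT, 2.32 in ΔM) and *Cnot6l* against *Cnot6* (5.16 and 2.16). Smaller moves were seen in the other 6 pairs, down for *Dcp1a* against *Dcp1b* (2.21 and 1.98), *Btg2* against *Btg1* and *Dis3l* against *Dis3*, and up for the rest.

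Among the other deadenylases, *Pan3* was far above its partner. PAN2 is the nuclease and PAN3 the adaptor that binds poly(A)-binding protein, and they are thought to trim long tails before CCR4-NOT acts. *Pan3* had 35.3 FPKM in WT and 21.9 in ΔM (log2 ratio -0.67), and *Pan2* had 0.61 FPKM in WT and 0.55 in ΔM. About 5255 fragments lay behind the value of *Pan3* in WT and 2886 in ΔM, its shortest annotated transcript has 3352 nt, and no *Pan3* window matched elsewhere in the genome. These numbers rest on an annotation in which *Pan3* starts 419 nt downstream of the start in the deposited table, while its 3′ end differs by 1 nt. *Parn*, a poly(A)-specific nuclease, had 0.63 FPKM in WT and 0.61 in ΔM, and the counting intervals of *Parn* and of *Pan2* overlapped between the libraries.

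BTG and TOB proteins bind the CAF1-type nucleases and bring them to mRNAs. *Btg2* had 5.05 FPKM in WT and 3.97 in ΔM (log2 ratio -0.28), from about 473 and 330 fragments, and it is a gene with 1 annotated transcript whose counting intervals lay apart. *Btg1* had 1.33 FPKM in WT and 1.06 in ΔM, so that *Btg2* exceeded it 3.80-fold in WT and 3.75-fold in ΔM. The longer *Tob2* line had 2.16 FPKM in WT and 2.37 in ΔM, and the shorter one, which overlaps it by 325 exonic nt, had 1.31 in WT and 1.68 in ΔM. *Tob1* was at 0.27 FPKM in WT and 0.26 in ΔM. No gene of this group reached 1.5-fold.

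The decapping factors were at close to equal levels, apart from *Edc3*. *Dcp2*, the decapping enzyme, had 5.54 FPKM in WT and 5.56 in ΔM, with about 1721 and 1533 fragments behind them. *Edc4*, the scaffold that joins DCP2 to its activators, had 9.31 FPKM in WT and 9.16 in ΔM, and the helicase *Ddx6* had 4.21 in WT and 4.19 in ΔM. The activators *Dcp1a* and *Dcp1b* kept their order, with 2.03 and 0.92 FPKM in WT and 2.10 and 1.06 in ΔM. *Edc3*, an enhancer of decapping, had 1.49 FPKM in WT and 0.89 in ΔM (log2 ratio -0.40) and counting intervals that lay apart. It passed the filter only through its WT value. *Edc3* shares 582 exonic nt with *Clk3* on the opposite strand, which had 7.23 FPKM in WT and 7.55 in ΔM. Of the 5 tested lines of this group 4 were within 0.2 of 0, where 52.3% of protein-coding genes were.

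The LSM ring had the lowest median of the groups with more than 1 tested line, -0.45 over 5 lines. Of the 5, 4 were lower in ΔM, as were 4052 of 8078 protein-coding genes. Both overlapping *Lsm3* lines are among the 5, and *Lsm5* passed the filter only through its WT value. The ring of LSM1 to LSM7 binds the shortened 3′ end and promotes decapping, and all of it except LSM1 is also found in the nuclear ring on U6 RNA. *Lsm4* had 96.2 FPKM in WT and 70.3 in ΔM (log2 ratio -0.45). *Lsm2* had 3.44 FPKM in WT and 1.02 in ΔM (log2 ratio -1.14), from about 71.7 and 18.8 fragments. *Lsm5* had 2.65 FPKM in WT and 0.38 in ΔM (log2 ratio -1.40, or -2.52 with 0.1 FPKM added), from about 29.3 and 3.71 fragments. The locus of *Lsm5* in the deposited table differs from the annotation by 2 nt at one end and 7 nt at the other. *Lsm5* and *Lsm2* thus had the lowest ratios of all members, on few fragments. *Lsm6* and *Lsm7*, both under 1 FPKM in WT, were also lower in ΔM, with 0.84 and 0.71 FPKM in WT and 0.35 and 0.23 in ΔM. *Lsm1*, the subunit that marks the cytoplasmic ring, had 0.46 FPKM in WT and 0.55 in ΔM. The protein-coding *Lsm3* line had 4.63 FPKM in WT and 5.27 in ΔM, and the other, a processed transcript that shares 251 exonic nt with it, had 7.47 in WT and 6.60 in ΔM.

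The values of *Lsm5* and *Lsm7* are uncertain, because the authors kept uniquely mapped reads and these transcripts have near-identical copies. At least 90% of the windows of *Lsm5* (60% exactly) and 97.3% of those of *Lsm7* (the same share exactly) matched elsewhere with at most 2 mismatches. The annotated copy with the most matching windows of *Lsm5*, the pseudogene *Gm10074*, had 2.32 FPKM in WT and was listed at 0 in ΔM. For *Lsm7* it was *Gm10146*, with 0.90 FPKM in WT and 1.53 in ΔM. Without *Lsm5* the median of the ring was -0.30 over 4 lines. No window of *Lsm2* or *Lsm4* matched elsewhere. *Lsm4* has an annotated transcript of 163 nt, which is shorter than the mean fragment of 200 nt in WT.

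Both XRN exonucleases were slightly lower in ΔM. *Xrn2*, the nuclear enzyme of transcription termination, had 58.8 FPKM in WT and 56.6 in ΔM, and *Xrn1*, the cytoplasmic enzyme that degrades decapped mRNA, had 6.46 in WT and 6.04 in ΔM. Their log2 ratios were -0.05 and -0.08, and the counting intervals overlapped for each of them.

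Of the 11 exosome genes 7 (63.6%) were higher in ΔM, against 53.8% of all genes and 49.5% of protein-coding genes, and their median log2 ratio was 0.076. The core of the exosome is a ring of subunits without catalytic activity, topped by a cap of RNA-binding subunits, and its nucleases are DIS3, DIS3L and EXOSC10. Of the 8 measured ring and cap genes 6 were higher in ΔM, with a median of 0.15. *Exosc2*, a cap subunit, had 4.80 FPKM in WT and 7.32 in ΔM (log2 ratio 0.52), and *Exosc8*, a ring subunit, had 11.8 in WT and 15.4 in ΔM (log2 ratio 0.36). *Exosc1*, also of the cap, had 0.80 FPKM in WT and 1.26 in ΔM (log2 ratio 0.33), and it passed the filter only through its ΔM value. Of these, only *Exosc8* had counting intervals that lay apart, and *Exosc2* did so as well when the longest transcript was used for its length.

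*Exosc3*, the remaining cap subunit, was opposite to the other cap genes. It had 15.5 FPKM in WT and 7.70 in ΔM (log2 ratio -0.92), with intervals from 13.6 to 17.5 and from 6.33 to 9.28 FPKM, from about 250 and 110 fragments. No window of *Exosc3* matched elsewhere, and its 4 annotated transcripts have 435 to 1077 nt. The ring subunits *Exosc4*, *Exosc5*, *Exosc7* and *Exosc9* had log2 ratios from -0.05 to 0.20. *Exosc10*, the nuclear nuclease, was the highest exosome gene with 25.5 FPKM in WT and 26.9 in ΔM. *Dis3* had 1.20 FPKM in WT and 1.08 in ΔM, and its cytoplasmic paralog *Dis3l* had 2.17 in WT and 1.93 in ΔM. The 3 nucleases all stayed within 0.2 of 0.

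Genes for proteins that bind the tail, the cap or the terminating ribosome had log2 ratios between -0.31 and 0.17. *Pabpc1*, the main cytoplasmic poly(A)-binding protein, had 4.51 FPKM in WT and 5.18 in ΔM, and *Pabpc4* had 0.22 in WT and 0.25 in ΔM. These 2 levels are uncertain too, since at least 47.1% of the windows of *Pabpc1* (8.82% exactly) and 88.1% of those of *Pabpc4* (49.0% exactly) matched elsewhere. *Pabpn1*, the nuclear poly(A)-binding protein, had 2.70 FPKM in WT and 1.99 in ΔM (log2 ratio -0.31), with overlapping intervals. It shares 651 exonic nt with *Gm20521* on the same strand, which had 1.22 FPKM in WT and 0.28 in ΔM. *Gigyf2*, which links TTP to the cap-binding protein 4EHP, had 4.77 FPKM in WT and 4.61 in ΔM, and *Gigyf1* had 1.02 in WT and 0.92 in ΔM. *Upf1*, the helicase of nonsense-mediated decay, had 9.35 FPKM in WT and 10.2 in ΔM, and *Upf2* had 1.77 in WT and 1.56 in ΔM.

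The size of the differences went together with how the genes are annotated, in splits that were added after the values were seen. The cut at 500 nt lies close to *Lsm5* (499 nt, log2 ratio -1.40), *Exosc9* (515 nt) and *Exosc2* (518 nt, log2 ratio 0.52), so the counts depend on where it is set. The 16 tested lines with an annotated transcript under 500 nt had a median log2 ratio of -0.22, with 4 higher and 12 lower in ΔM, and 5 of them reached 1.5-fold. The 27 tested lines whose shortest transcript had at least 500 nt had a median of 0.031, with 16 higher and 11 lower, and 1 of them, *Pan3*, reached 1.5-fold. Among protein-coding genes the medians of these classes were -0.0089 and 0.0016, and 1.5-fold was reached by 16.4% and 6.08%. The classes also differed in level. The median WT value of the tested lines was 11.16 and 3.14 FPKM in members, and 8.91 and 5.005 FPKM in protein-coding genes. Adding 1 FPKM shrinks the ratios of low genes, and the part of level in these splits was not tested. Of the 12 tested lines with a single annotated transcript, *Lsm5* alone (8.33%) reached 1.5-fold, against 6.53% of protein-coding genes with a single transcript, and their median was 0.016. Counting intervals lay apart for 32.6% of the tested member lines and 37.2% of protein-coding genes, and for 16.7% and 27.8% of those with 1 annotated transcript.

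**Figure D3:**
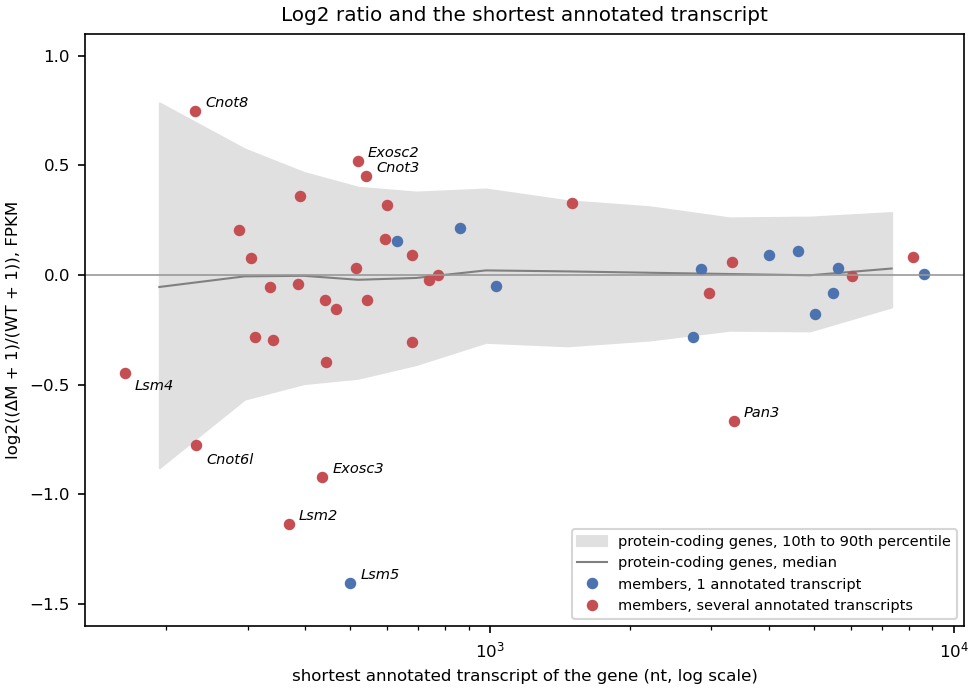
Log2((ΔM + 1)/(WT + 1)) of the 43 tested lines against the length of the shortest annotated transcript of the gene in nt (log axis). Blue points are genes with 1 annotated transcript and red points genes with several, the grey band spans the 10th to 90th percentile of protein-coding genes in classes of length, and the grey line is their median. Apart from *Pan3*, the members at 1.5-fold or more lie at 232 to 499 nt (lower in ΔM) or 231 nt (higher), where the band is also wider than at long transcripts.

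TATTTAT was present in the longest annotated 3′ UTR of 12 of the 51 lines with such a UTR, that is, 23.5%, compared to 27.0% of 7935 protein-coding genes. It occurred 3 times in *Cnot6l*, 2 times in *Dcp2* and *Cnot6*, and once in *Cnot7*, *Cnot8*, *Pan3*, *Btg2*, *Tob2*, *Edc3*, *Dcp1a*, *Dcp1b* and *Lsm6*. The 9-nt form TTATTTATT was present in *Cnot6l* and *Edc3* only, and the pentamer ATTTA, which both longer motifs contain, in 34 lines (66.7%, compared to 66.6% of protein-coding genes). The lines with TATTTAT had long 3′ UTRs, with a median of 2902 nt compared to 767 nt in those without. Among UTRs of at least 2000 nt, 9 of 14 lines (64.3%) carried it, compared to 49.8% of protein-coding genes. Among those under 1000 nt, none of 27 lines did, compared to 6.27% of protein-coding genes with a UTR under 500 nt and 17.6% of those with 500 to 1000 nt. The exosome genes, which lack the motif, had UTRs of 100 to 1203 nt.

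**Figure D4:**
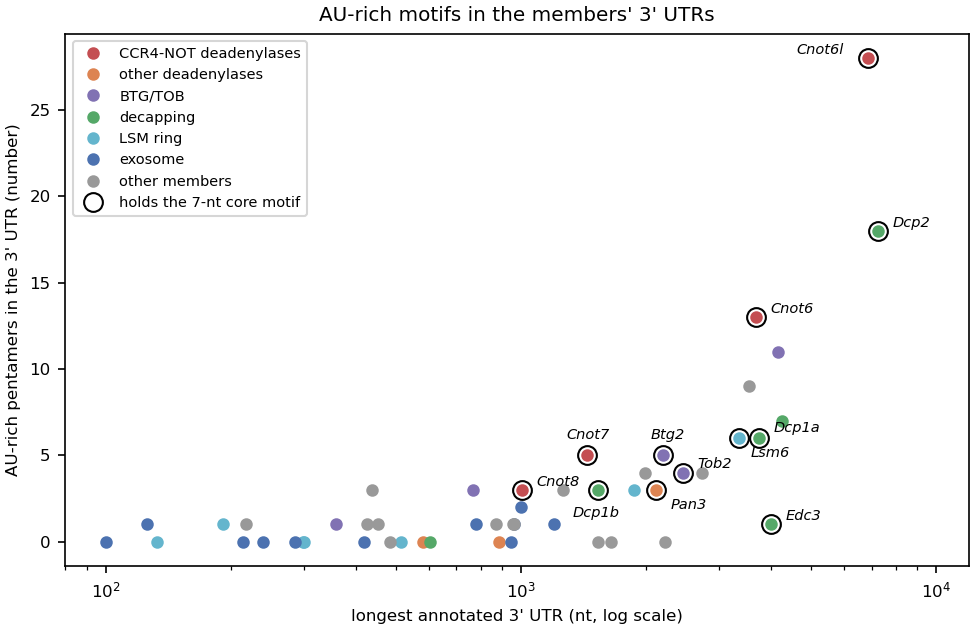
Number of AU-rich pentamers (ATTTA) in the longest annotated 3′ UTR of each of 51 lines against the length of that UTR in nt (log axis), colored by sub-complex. Circled points hold the 7-nt core motif: 12 lines with UTRs of 1006 to 7240 nt, among them all 4 CCR4-NOT deadenylases, with *Cnot6l* highest at 28 pentamers.

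The presence of the motif did not separate the members by direction. Of the 10 tested lines with TATTTAT, 5 were higher and 5 lower in ΔM. The median log2 ratio was -0.14, and the values ran from -0.78 (*Cnot6l*) to 0.75 (*Cnot8*). Without the motif the median of 32 lines was -0.0035, with 15 higher and 17 lower. The corresponding medians over protein-coding genes were 0.0025 with and -0.0052 without the motif. Within the CCR4-NOT nucleases, which all carry it, *Cnot8* and *Cnot6* were higher and *Cnot7* and *Cnot6l* lower. *Cnot6l* and *Edc3*, the holders of the 9-nt form, were both lower in ΔM, and *Edc3* passed the filter only through its WT value. Of 547 protein-coding genes with the 9-nt form, 279 were higher and 260 lower in ΔM, with a median log2 ratio of 0.0085.

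Further genes of the same pathways, listed by function, were measured alongside. Of 53 found in the table, 35 had a mean of at least 1 FPKM, and 12 of these (34.3%) were higher, 22 lower and 1 equal in ΔM, with a median log2 ratio of -0.087. Of protein-coding genes 49.5% were higher. A single gene (2.86%) reached 1.5-fold, against 10.2% of protein-coding genes. This was *Eif4enif1*, which encodes the eIF4E transporter that joins the decapping factors to the cap-binding protein, with 33.7 FPKM in WT and 19.3 in ΔM (log2 ratio -0.77). *Ccrn4l*, a relative of the CCR4-type deadenylases, had 4.77 FPKM in WT and 7.56 in ΔM (log2 ratio 0.57), just under that size.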

How the data were processed

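RNA-Seq of 1 WT and 1 ΔM library was analysed. Per the labels and the paper's methods, adaptors were removed with Cutadapt, Segemehl mapped the reads to mm9, multiply mapped reads were discarded, and Cufflinks gave FPKMs over Ensembl exons. The FPKMs deposited by the authors have 2 decimals and 1 value per gene, and 1 gene has no number in ΔM. No count model was applied to them. Whether counting used strand is not given in the sources used here. The library titles carry LPS7, whereas the treatment text of the labels states 6 h.

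Log2 ratios were calculated after adding 1 FPKM, for lines whose mean reached 1 FPKM, here called tested although no test was run. Gene types, transcripts and 3′ UTRs came from GENCODE M1 on NCBIM37 (mm9), which held 37039 of the 37451 identifiers. Of the 52 member lines, 50 matched it in their coordinates, the exceptions being *Pan3* and *Lsm5*. Depth was estimated as the number of fragments and mean fragment length (200 nt in WT, 201 nt in ΔM) that best turn the low FPKMs of genes with a single transcript into whole fragment numbers. With a tolerance of 0.15 fragments, 90.1% of 1556 values in WT and 90.9% of 1534 in ΔM were whole, where a uniform spread gives 30%. On 3 simulated libraries the estimate was within 1.02%. Intervals are 95% Poisson intervals at the median transcript length and are approximate. Windows of 100 nt, in steps of 10 nt, from the longest protein-coding transcript (or the longest where none is coding) were aligned to the genome with minimap2 2.31, which can miss matches, so shares are lower bounds. Software was Python 3.11.15 with matplotlib 3.10.9, scipy 1.17.1, pandas 2.3.3, numpy 2.4.6 and pysam 0.24.0.

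Members, lists and sizes were chosen with earlier results of these data known. Named in full are the 5 highest and 5 lowest ratios, the highest and lowest WT level of each sub-complex, the paralog pairs, *Zfp36* and pathway genes past 1.5-fold. Other genes were named after their values were seen. Alternatives covered the pseudocount, the filter, centring, transcript length and the motif. Protein sequences were not used here.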

Additional observations from a re-analysis of the deposited data

How the results depend on the processing

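No paired analysis was possible because each genotype has 1 library and no test was run. Leaving out a library was likewise not possible. Over the members, the median log2 ratio lay between -0.034 and 0.031 under the pseudocount, filter, centring, transcript and window alternatives. The median of the CCR4-NOT deadenylases was 0.018, -0.010 when centred on all genes and -0.28 at a mean of at least 5 FPKM, and that of the scaffold genes was 0.044 and, with this filter, -0.15 over 2 genes. With that filter 8 of 19 lines were higher in ΔM. Lines with 1 annotated transcript, an alternative added after seeing the data, had 7 of 12 higher and 1 at 1.5-fold, and lines whose shortest transcript had at least 500 nt, added likewise, had 1 of 27 at 1.5-fold. Fewer lines enter each of these. Without a filter the median of *Pan2*, *Pan3* and *Parn* was -0.055, compared to -0.67 for *Pan3* alone. The background was 10.2% of protein-coding genes at 1.5-fold and 2.51% at 2-fold, compared to 18.7% and 9.31% of all genes. The pentamer was found in 34 lines and the 9-nt motif in 2, compared to 12. Among the ratios of the 52 lines and *Zfp36*, the sign of 1 (*Dcp2*, main value 0.0044) changed, when centred on all genes, and none did with the other pseudocount or centring on protein-coding genes. Depth limits *Lsm5* and *Lsm7* most, with about 3.71 and 2.01 fragments in ΔM.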

Other observations

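Introns of *Pabpc4* and *Cnot1* hold small nucleolar RNAs. *Pabpc4*, at 0.22 FPKM in WT and 0.25 in ΔM, hosts 2 copies of SNORA55, of which 1 had 219 FPKM in WT and 306 in ΔM and the other 256 in WT and 327 in ΔM. *Cnot1*, at 2.95 FPKM in WT and 3.18 in ΔM, hosts SNORA46 with 242 FPKM in WT and 251 in ΔM, and SNORA76, which was listed at 0 in WT and had 3.79 FPKM in ΔM. These RNAs are shorter than the mean fragment, so that their FPKMs depend on how the effective length was set.

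Among the pathway genes outside the member list, *Angel1*, a relative of the CCR4-type deadenylases, had 0.02 FPKM in WT and 0.60 in ΔM. With a mean of 0.31 FPKM, *Angel1* was under the filter of 1 FPKM and was not among the tested genes. Its paralog *Angel2* had 1.01 FPKM in WT and 1.56 in ΔM. *Pnrc1*, which binds the decapping complex, had 12.5 FPKM in WT and 9.57 in ΔM, whereas *Pnrc2* had 9.71 in WT and 10.54 in ΔM. The terminal nucleotidyltransferase *Papd7* had 7.17 FPKM in WT and 9.86 in ΔM (log2 ratio 0.41), and it has 1 annotated transcript.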
